A study of Homo sapiens with 2 samples.

Results

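The fibroblast growth factor (FGF) ligands and receptors were followed in H1 human embryonic stem cells (hESCs) that had received bone morphogenetic protein 4 (BMP4), a differentiation signal. Members were the rows of 9 named genes among the 33538 genes of both count matrices. They were 5 ligands (FGF2, FGF4, FGF8, FGF17 and FGF19) and 4 receptors (FGFR1, FGFR2, FGFR3 and FGFR4), and all 9 rows were present. H1 is an established cell line, and both groups had been cultured on Matrigel in mTeSR1 medium with 50 ng/ml BMP4 for 48 h. The WT group was 1 single-cell library of H1 cells without an edit. The GATA3 KO group was 1 single-cell library of KO-GATA3-06, a single clone in which Cas9 had been aimed at GATA3, a transcription factor gene. That clone was derived from an H1 line carrying an inducible Cas9 cassette, so clone, cassette, library and genotype cannot be told apart here. A protocol field of the WT sample states 1 h of BMP4 while its title and its recorded duration state 48 h, and the latter was used.

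FGF ligands are secreted proteins that bind FGF receptors on the cell surface together with heparan sulfate, or with a Klotho protein for the endocrine ligands. The bound receptors, which are tyrosine kinases, pass the signal through FRS2, GRB2 and RAS to the kinases MEK and ERK. ERK activity switches on ETV transcription factors and also the Sprouty (SPRY), SPRED and DUSP genes, whose products damp the same pathway. In hESC culture FGF2 protein is supplied by the medium and sustains self-renewal, and in the embryo FGF4, FGF8 and FGF17 are made at the primitive streak, the site where mesoderm and endoderm form. Transcript counts record what the cells themselves made, not the FGF2 of the medium.

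Transcripts were counted as unique molecular identifiers (UMIs), each marking 1 captured RNA molecule. After the study's limits on detected genes and mitochondrial share, 2519 of 3802 WT cells and 4450 of 6221 GATA3 KO cells remained. The WT cells held 99587274 UMIs (median 44415 a cell) and the GATA3 KO cells 175285931 (median 43131.5). Only 8 cell barcodes (0.21% of those of WT) were shared. With 1 library per group no test was possible, and every interval given is a 95% interval of counting error alone, exact Poisson for levels. PCR had preceded sequencing, but UMIs count each tagged molecule once. GATA3 stood at 12.7 UMIs per 1000000 (CPM) in WT and 10.9 CPM in GATA3 KO. A tag at the 3′ end is blind to a cut in the coding sequence, so this level checks nothing and every direction rests on the labels. All 7 pluripotency markers exceeded 10 CPM in both libraries, as the cell type on the labels would have. Primitive-streak markers summed to 252.8 CPM in WT and 12.3 CPM in GATA3 KO, and amnion or trophectoderm markers to 53.2 and 81.5 CPM. Endoderm markers summed to 15.3 and 3.26 CPM, and early neural markers to 13.1 and 30.9 CPM. The last 3 sums rest on few genes. Of 5 early neural markers 1 exceeded 1 CPM in WT and 2 in GATA3 KO, and of 5 endoderm markers 3 and 1 did. Of 9 amnion or trophectoderm markers 3 exceeded 10 CPM in each library. Among those 9, TFAP2A was at 16.7 and 37.7 CPM, while GATA3 went the other way. The 6 fibroblast markers summed to 95.5 and 107.8 CPM with DCN and LUM at 0 UMIs in at least 1 library, and the 4 blood and endothelial markers to 0.0602 and 0.0856 CPM. What part differences in cell make-up had in the FGF values was not tested. A lower summed level does not distinguish fewer cells of a kind from less RNA per cell.

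The ligands other than FGF2 were lower in GATA3 KO, whereas FGF2 and the receptors stood higher, FGFR3 by the least. FGF4, an early embryonic ligand (chromosome 11, 69771022 to 69775341, minus strand, in GRCh38), stood at 18.7 CPM (17.8 to 19.6) in WT and 1.39 CPM (1.22 to 1.58) in GATA3 KO, 13.4-fold lower (11.7 to 15.4). FGF8, which gastrulating mouse embryos need for cells to leave the streak (chromosome 10, 101770109 to 101780371, minus strand), went from 19.5 CPM (18.6 to 20.4) to 2.17 CPM (1.96 to 2.40), 8.99-fold lower (8.05 to 10.1). FGF17, a close relative of FGF8 (chromosome 8, 22042398 to 22048809, plus strand), was the most different member. It gave 1503 UMIs in WT, or 15.1 CPM (14.3 to 15.9), and 18 UMIs in GATA3 KO, or 0.103 CPM (0.0609 to 0.162), a ratio of 147-fold (92.7 to 249). FGF19, an endocrine ligand known for feedback on bile acid synthesis (chromosome 11, 69698238 to 69704022, minus strand), was at 6.52 CPM (6.03 to 7.04) against 3.18 CPM (2.92 to 3.46), and its log2 ratio was -1.03 (-1.20 to -0.87). FGF19 and FGF4 are neighbours on chromosome 11, 67.0 kb apart.

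FGF2 went the other way. The gene of the ligand that keeps hESCs self-renewing (chromosome 4, 122826682 to 122898236, plus strand) stood at 67.5 CPM (65.9 to 69.1) in WT and 86.4 CPM (85.1 to 87.8) in GATA3 KO, and its log2 ratio was 0.36 (0.31 to 0.40). It overlaps NUDT6 on the other strand. The 5 ligands together summed to 127.3 CPM in WT and 93.3 CPM in GATA3 KO, and FGF2 made up 53.0% and 92.7% of those UMIs. Without FGF2 the other 4 ligands summed to 59.8 and 6.85 CPM, a log2 ratio of -3.13 (-3.22 to -3.04).

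FGFR1, the main FGF receptor of undifferentiated hESCs (chromosome 8, 38400215 to 38468834, minus strand), was at 89.6 CPM (87.8 to 91.5) in WT and 179.4 CPM (177.4 to 181.4) in GATA3 KO. The log2 ratio of 1.00 (0.97 to 1.03) lay at the 2-fold line itself and fell just under it under 7 of the alternatives tried. An unnamed gene overlaps FGFR1 on the same strand and LETM2 on the opposite one, so some of its reads could be shared. FGFR2 (chromosome 10, 121478332 to 121598458, minus strand), whose isoforms divide epithelial from mesenchymal FGF signalling, was at 14.1 CPM (13.4 to 14.9) and 19.9 CPM (19.2 to 20.5). FGFR4 (chromosome 5, 177086905 to 177098144, plus strand), the receptor that FGF19 uses, was at 13.5 CPM (12.7 to 14.2) and 16.9 CPM (16.3 to 17.5). FGFR3 (chromosome 4, 1793293 to 1808872, plus strand), a receptor best known for restraining bone growth, was the least different at 8.63 CPM (8.06 to 9.22) and 9.57 CPM (9.11 to 10.0), and its ratio changed sign when the limit on detected genes was lifted. The 4 receptors summed to 125.9 and 225.7 CPM, of which FGFR1 made up 71.2% and 79.5%.

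A gene was counted as past 2-fold if it had at least 1 CPM in the higher group and 20 UMIs over both. By that count 1 of the 9 members was higher in GATA3 KO (FGFR1) and 4 were lower (FGF4, FGF8, FGF17 and FGF19). Over all 13523 genes that met the same minimum, 4.44% were higher and 4.24% were lower, and the median log2 ratio was 0.08, against 0.15 over the 9 members. The order of levels also differed. In WT the members ran FGFR1, FGF2, FGF8, FGF4, FGF17, FGFR2, FGFR4, FGFR3 and FGF19 from high to low, and the intervals overlapped between FGF8 and FGF4, between FGF17 and FGFR2, and between FGFR2 and FGFR4. In GATA3 KO the order was FGFR1, FGF2, FGFR2, FGFR4, FGFR3, FGF19, FGF8, FGF4 and FGF17, and no neighbours had overlapping intervals. Each transcript is tagged once at its 3′ end, so levels were compared between genes without division by length, and capture may still differ between genes.

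**Figure D1:**
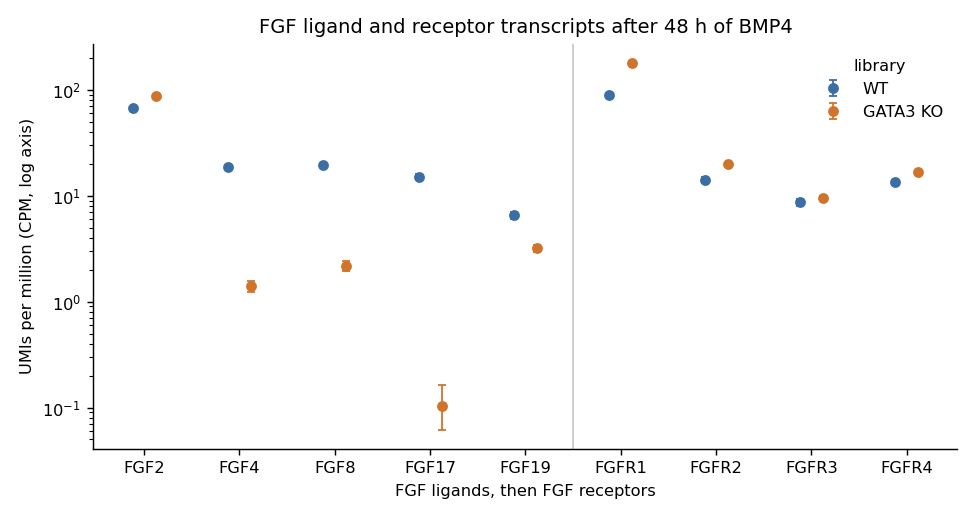
Level of each member in UMIs per 1000000 (CPM, log axis) in the WT library (blue) and the GATA3 KO library (orange), with exact Poisson intervals of counting error, often smaller than the points. FGF17 shows the widest gap, 15.1 against 0.103 CPM, and each of the 4 receptors lies higher in GATA3 KO.

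Genes within 1 Mb of a member were counted on the same scale. Around FGF17 the median log2 ratio of 18 genes was 0.26, with 4 of them past 2-fold higher in GATA3 KO and 1 lower at -2.21. Around FGF8 it was 0.26 over 30 genes, with 1 higher and 1 lower at -1.51. Around FGF4 the median was 0.09 over 13 genes, with 0 higher and 2 lower, down to -1.06, and FGF19 was among the 13. Around FGFR1 it was 0.22 over 17 genes, none of which was 2-fold higher, and 1 was lower at -1.05. Around FGF2 it was -0.26 over 6 genes, with 1 lower at -1.33. This look at neighbouring genes was added after the ratios were seen.

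To compare cells at equal depth, each kept cell with at least 10000 UMIs was thinned at random to that number, which left 2173 WT and 4038 GATA3 KO cells. FGFR1 was detected in 54.3% of WT cells and 78.7% of GATA3 KO cells, a difference of 24.3 points (21.9 to 26.8). FGF2 was detected in 44.5% and 55.4%, a difference of 10.9 points (8.35 to 13.5). FGFR2 was found in 12.6% and 18.3% of cells. These 3 transcripts were therefore found in more cells of GATA3 KO.

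The streak ligands were rarer in GATA3 KO. FGF8 was found in 15.8% of WT cells (14.3 to 17.4) and 1.61% of GATA3 KO cells (1.24 to 2.05). For FGF4 the shares were 11.1% (9.84 to 12.5) and 1.54% (1.18 to 1.96). FGF17 was detected in 142 of 2173 WT cells, or 6.53% (5.53 to 7.66), and in 4 of 4038 GATA3 KO cells, or 0.0991% (0.0270 to 0.253). FGF19 was in 5.75% and 3.37% of cells, FGFR3 in 8.74% and 9.91%, and FGFR4 in 12.8% and 15.2%. Thus 3 of the 9 members were 5 points or more higher in GATA3 KO (FGF2, FGFR1 and FGFR2), where 14.2% of the 13523 genes were, and 3 were 5 points or more lower (FGF4, FGF8 and FGF17), where 9.17% were. The difference for FGFR3 was 1.16 points, with an interval that included 0 (-0.38 to 2.63). Without thinning, FGF17 was in 10.1% and 0.247% of cells, FGF4 in 19.5% and 4.16%, FGF8 in 34.6% and 4.07%, and FGFR1 in 80.2% and 91.1%.

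**Figure D2:**
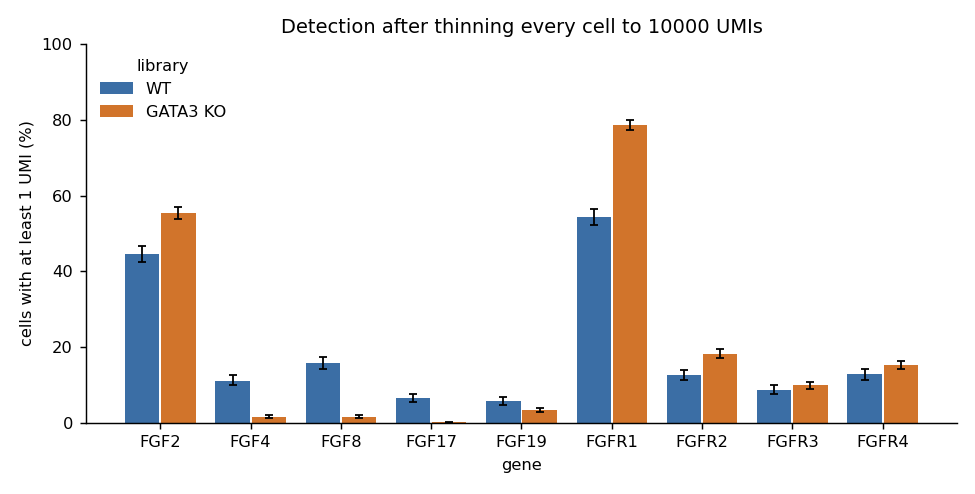
Share of cells (%) with at least 1 UMI of each member after every cell had been thinned to 10000 UMIs, for 2173 WT cells (blue) and 4038 GATA3 KO cells (orange), with exact Clopper-Pearson intervals. FGF2 and FGFR1 were detected in 44.5% to 78.7% of cells, and FGF17 in 6.53% and 0.0991%.

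Free RNA in the droplets can put a UMI into a cell that does not express a gene, so the shares were set beside those in cells that carried TFAP2A, a marker of amnion, trophectoderm and surface ectoderm, and neither SOX2 nor MIXL1. Such cells had median depths of 45138 UMIs in WT (133 cells) and 45708 in GATA3 KO (317 cells) before thinning. After thinning, the TFAP2A-only cells of WT held FGF17 in 2 cells, FGF4 in 1, FGF19 in 1 and FGF8 in 7. These WT cells were not free of streak transcripts, since 18.8% of them held EOMES, a streak factor. Before thinning, the 133 WT cells held 11 UMIs of FGF4, 5 of FGF17, 5 of FGF19 and 35 of FGF8. In GATA3 KO the 317 TFAP2A-only cells held 3 UMIs of FGF4, 2 of FGF17, 3 of FGF19 and 7 of FGF8 before thinning. FGF17 stood at 0.141 CPM (0.0170 to 0.509) in them, against 0.103 CPM over all GATA3 KO cells. Of the 18 FGF17 UMIs of GATA3 KO, 55.6% lay in cells with MIXL1, a streak marker, which held 2.31% of all UMIs. No class of these cells is known to lack FGFR1 or FGF2, so no such value can be set beside them.

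Ligand UMIs were concentrated in few WT cells. The 10% of cells with the highest counts held 99.9% of the FGF17 UMIs, 84.7% of those of FGF4, 74.0% of those of FGF19 and 57.4% of those of FGF8. For FGF2 the value was 30.9%, and for the receptors it ran from 31.6% (FGFR1) to 52.0% (FGFR3). Before thinning, a single WT cell held up to 47 UMIs of FGF17 and 24 of FGF4, and in GATA3 KO the highest counts were 4 and 12. The most abundant transcripts were thus spread widely over cells, while FGF17 was absent from most cells and plentiful in some.

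The WT and GATA3 KO cells were next divided by 3 markers at equal depth. SOX2 marks pluripotent and neural cells, MIXL1 the primitive streak and early mesendoderm, and TFAP2A the cells named above. A cell was positive if it had at least 1 UMI of the marker after thinning, so the negative cells include some in which the marker was missed. SOX2 was detected in 1177 WT cells (54.2%) and 3493 GATA3 KO cells (86.5%), MIXL1 in 713 (32.8%) and 87 (2.15%), and TFAP2A in 265 (12.2%) and 705 (17.5%). Levels were then taken from all UMIs of the cells. Positive and negative cells of a library had median depths within 44731 to 49242 UMIs.

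FGF4, FGF8, FGF17 and FGF19 were higher in MIXL1-positive than in MIXL1-negative cells of WT. FGF17 was at 43.2 CPM in MIXL1-positive cells and 0.695 CPM in the rest, a log2 ratio of 5.96 (5.53 to 6.42), and 97.0% of its UMIs lay in MIXL1-positive cells, which held 34.1% of all UMIs. FGF4 was at 49.0 and 3.14 CPM, a log2 ratio of 3.97 (3.75 to 4.18), with 89.0% of its UMIs in MIXL1-positive cells. For FGF19 the levels were 12.5 and 3.49 CPM, a log2 ratio of 1.84 (1.60 to 2.08). FGF8 was less confined, at 34.3 and 12.0 CPM, a log2 ratio of 1.52 (1.39 to 1.65). At equal depth FGF17 was in 18.2% of MIXL1-positive and 0.822% of MIXL1-negative cells, FGF4 in 28.2% and 2.81%, and FGF8 in 27.9% and 9.93%.

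The receptors and FGF2 did not share that pattern. FGFR2 was lower in MIXL1-positive cells of WT, at 6.46 against 17.9 CPM, a log2 ratio of -1.47 (-1.69 to -1.26). FGFR1 was at 58.9 against 105.8 CPM (log2 ratio -0.84), FGF2 at 45.8 against 78.3 CPM (-0.77) and FGFR3 at 6.34 against 9.64 CPM (-0.60). FGFR4 was at 13.3 and 13.6 CPM, and the interval of its ratio included 0 (-0.20 to 0.13). In all, 5 of the 9 members were past 2-fold in WT, 4 of them higher and 1 lower, where 5.21% of all genes were past 2-fold either way.

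MIXL1-positive cells of GATA3 KO were few, and MIXL1 itself was at 127.2 CPM in them against 378.2 CPM in those of WT. They held SOX2 in 65.5% of cells and EOMES, another streak factor, in 35.6%, against 27.6% and 64.4% in WT. FGF8 was at 38.4 CPM in these 87 cells and 1.32 CPM in the MIXL1-negative cells, a log2 ratio of 4.86 (4.55 to 5.16). FGF4 was at 16.5 and 1.04 CPM, a log2 ratio of 3.99 (3.56 to 4.41), and FGF19 at 6.98 and 3.11 CPM, a log2 ratio of 1.16 (0.56 to 1.71). FGF17 fell below the minimum, with 10 UMIs in MIXL1-positive and 8 in MIXL1-negative cells. So 3 of the 8 members that met the minimum were past 2-fold, all ligands and all higher, against 5.82% of all genes. FGFR2 stood at 11.0 and 20.1 CPM and FGFR1 at 124.2 and 180.9 CPM.

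SOX2-positive cells showed largely the opposite picture in WT. FGFR1 was at 117.2 CPM in SOX2-positive and 58.0 CPM in SOX2-negative cells (log2 ratio 1.02, 0.95 to 1.08), and FGFR2 at 19.5 and 7.66 CPM (1.35, 1.17 to 1.53). FGF2 was also on this side, at 82.3 and 49.8 CPM (0.73). FGF4 was at 8.07 and 31.2 CPM, a log2 ratio of -1.95 (-2.11 to -1.79), and FGF17 at 5.26 and 26.6 CPM, a log2 ratio of -2.34 (-2.53 to -2.15). These were 4 members past 2-fold, where 6.07% of all genes were. In GATA3 KO only FGF8 was past 2-fold between SOX2-positive and SOX2-negative cells, at 1.82 and 4.41 CPM, 1 of the 8 members tested where 12.5% of all genes were past it. FGFR1 was at 192.2 and 100.9 CPM there, a log2 ratio of 0.93 (0.87 to 0.99), and FGFR2 at 20.4 and 16.5 CPM (0.31).

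By TFAP2A, in WT only FGF17 was past 2-fold, at 7.33 CPM in TFAP2A-positive and 16.2 CPM in TFAP2A-negative cells, where 5.58% of all genes were. With another random thinning its ratio was no longer past the line. In GATA3 KO none of the 8 members that met the minimum was past 2-fold, where 8.79% of all genes were. These counts depended on how the cells were chosen. They were 4 members in WT and 3 in GATA3 KO with at least 2 marker UMIs. With TFAP2A-only cells against all TFAP2A-negative cells they were 5 and 4. The share of all genes was not counted for these choices. FGFR3 was the 1 receptor on the TFAP2A side, at 14.2 against 7.74 CPM in WT (log2 ratio 0.87, 0.62 to 1.12) and 12.9 against 8.78 CPM in GATA3 KO (0.56, 0.39 to 0.72). FGFR1 was lower on that side in both, with log2 ratios of -0.49 and -0.58.

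**Figure D3:**
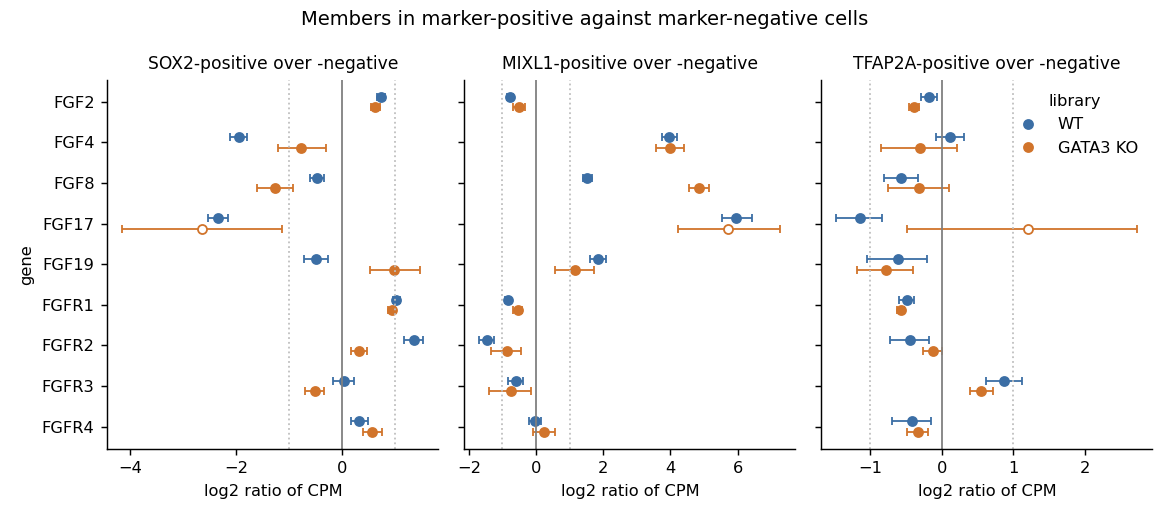
Log2 ratio of CPM in marker-positive over marker-negative cells for each member, in WT (blue) and GATA3 KO (orange), with exact binomial intervals of counting error. Open points had too few UMIs to be counted, and dotted lines mark 2-fold. FGF4, FGF8, FGF17 and FGF19 lie to the right in the MIXL1 panel in both libraries, while FGFR3 alone lies to the right in the TFAP2A panel in both.

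Many cells carried more than 1 marker, among them 69 of the 265 TFAP2A-positive WT cells that held MIXL1 and not SOX2. Cells with 1 of the 3 markers alone gave a sharper division. In WT, FGF4 stood at 2.99 CPM in 929 SOX2-only cells, 53.7 CPM in 447 MIXL1-only cells and 1.86 CPM in 133 TFAP2A-only cells. For FGF17 the 3 levels were 0.311, 52.3 and 0.845 CPM. FGF19 was at 3.83, 12.3 and 0.845 CPM, and FGF8 at 11.4, 31.5 and 5.92 CPM. FGFR1 was at 126.1 CPM in SOX2-only cells against 53.3 and 55.3 CPM in the others, and FGFR2 at 21.6 against 5.52 and 8.11 CPM. FGFR3 was highest in TFAP2A-only cells at 16.9 CPM, against 8.57 and 5.24 CPM. Of these 3 kinds of cell, the 4 ligands were thus highest where MIXL1 was the only marker, FGFR1 and FGFR2 where SOX2 was, and FGFR3 where TFAP2A was. Cells with a pair of markers could stand higher still. FGF8 was at 43.9 CPM (39.6 to 48.7) in 185 cells with SOX2 and MIXL1, above the 31.5 CPM (29.2 to 34.0) of MIXL1-only cells. FGF4 was at 61.7 CPM (53.6 to 70.7) in the 69 cells with MIXL1 and TFAP2A, an interval that overlapped that of MIXL1-only cells, and FGF17 at 21.0 CPM (16.4 to 26.4).

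In GATA3 KO 3067 cells were SOX2-only, 317 TFAP2A-only and 19 MIXL1-only. The same division was seen for FGF4 (1.17, 40.4 and 0.211 CPM in SOX2-, MIXL1- and TFAP2A-only cells) and FGF8 (1.24, 62.3 and 0.493 CPM). FGFR1 was at 196.3, 89.6 and 87.8 CPM. FGFR2 was at 17.9 CPM in TFAP2A-only cells (15.7 to 20.2), close to the 20.7 CPM of SOX2-only cells, while WT had 8.11 CPM there.

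**Figure D4:**
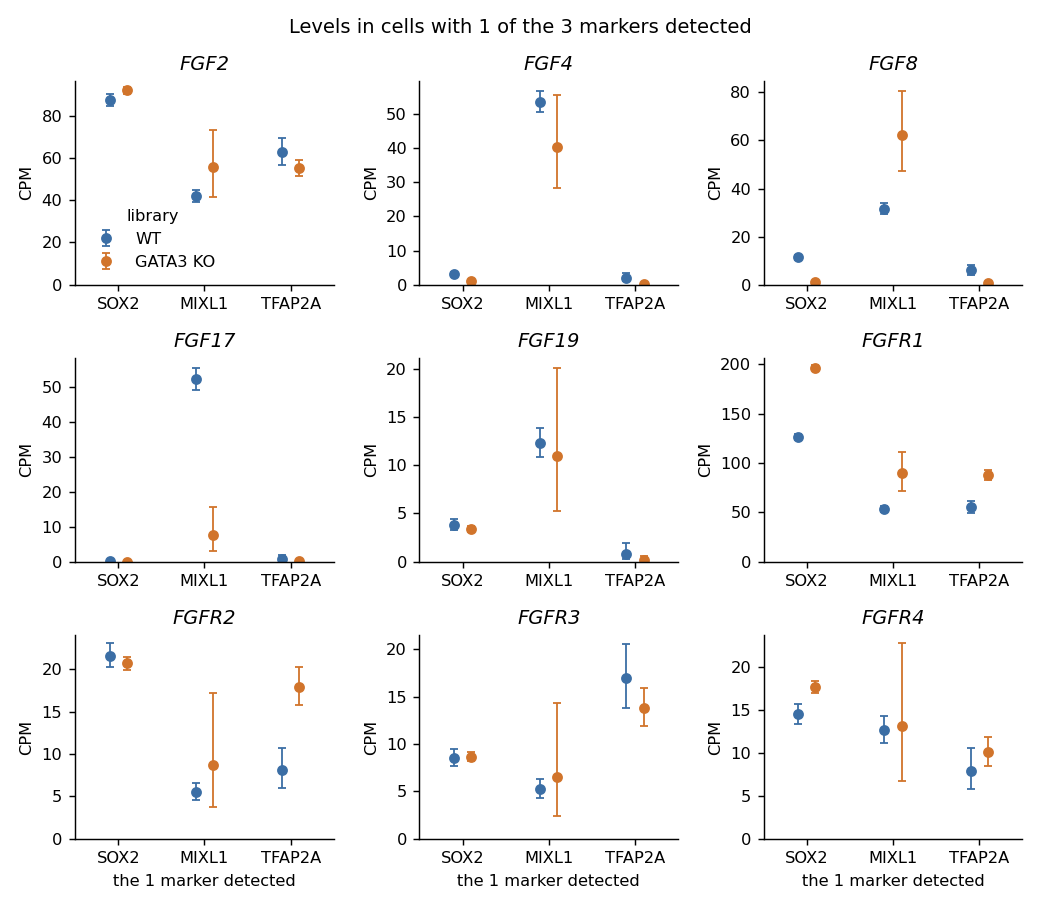
CPM of each member in cells with only SOX2, only MIXL1 or only TFAP2A detected, in WT (blue) and GATA3 KO (orange), with exact Poisson intervals and a separate linear axis for each gene. FGF4 and FGF17 reach 53.7 and 52.3 CPM in MIXL1-only WT cells, and the wide intervals in GATA3 KO rest on 19 MIXL1-only cells.

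Within cells positive for the same marker, the libraries were compared again. In SOX2-positive cells FGF17 was at 5.26 CPM in WT and 0.0601 CPM in GATA3 KO, FGF8 at 16.6 and 1.82 CPM, and FGF4 at 8.07 and 1.27 CPM. These 3 of 9 members were past 2-fold, all lower, where 7.0% of all genes were past it either way. FGFR1 was at 117.2 and 192.2 CPM, a log2 ratio of 0.71 (0.67 to 0.75). FGFR2 and FGFR3 had ratios of 0.07 and 0.06, with intervals that included 0. MIXL1 was detected in 16.7% of the SOX2-positive cells of WT and 1.63% of those of GATA3 KO. In SOX2-only cells FGF8 still stood at 11.4 CPM in WT and 1.24 CPM in GATA3 KO, a log2 ratio of -3.20 (-3.46 to -2.94), whereas FGF4 was at 2.99 and 1.17 CPM (-1.35). FGF17 was under 1 CPM in SOX2-only cells of both, at 0.311 CPM (13 UMIs) and 0.0380 CPM (5 UMIs), a log2 ratio of -3.03 (-4.88 to -1.45).

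In MIXL1-positive cells the ligands parted. FGF8 was at 34.3 CPM in WT and 38.4 CPM in GATA3 KO, a log2 ratio of 0.16 whose interval included 0 (-0.09 to 0.41). FGF17 was at 43.2 and 2.49 CPM, a log2 ratio of -4.11 (-5.18 to -3.23), and FGF4 at 49.0 and 16.5 CPM (-1.57, -1.95 to -1.22). FGFR1 was higher in GATA3 KO, at 58.9 and 124.2 CPM (1.08, 0.93 to 1.22). These were 3 of 9 members past 2-fold, where 13.3% of all genes were. In cells with MIXL1 alone FGF4 was at 53.7 and 40.4 CPM, a log2 ratio of -0.41 with an interval that included 0 (-0.92 to 0.06), and FGF19 at 12.3 and 10.9 CPM. FGF17 stayed lower in those cells at 52.3 and 7.65 CPM (-2.77, -4.09 to -1.72), and FGF8 was at 31.5 and 62.3 CPM (0.98, 0.57 to 1.37). The GATA3 KO values there come from 19 cells, and 7 UMIs of FGF17.

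In TFAP2A-positive cells FGF4 was at 20.1 CPM in WT and 1.17 CPM in GATA3 KO, FGF8 at 13.7 and 1.82 CPM, FGF17 at 7.33 and 0.195 CPM, and FGF19 at 4.46 and 2.01 CPM. All 4 were lower past 2-fold, where 11.0% of all genes were past it either way. MIXL1 was detected in 30.6% of the TFAP2A-positive cells of WT and 2.70% of those of GATA3 KO. In TFAP2A-only cells 2 members were past 2-fold, and the share of all genes past it was not counted there. FGF8 was lower at 5.92 and 0.493 CPM (-3.59, -5.00 to -2.39) and FGFR2 higher (1.14, 0.69 to 1.62). FGF4 gave 1.86 and 0.211 CPM there (-3.14, -5.62 to -1.22) from too few UMIs to be counted. FGF17 (-2.59, -5.98 to 0.02) and FGF19 (-2.00, -4.69 to 0.36) were under 1 CPM in both libraries, with intervals that included 0. FGFR1 was at 66.3 and 128.0 CPM (0.95, 0.84 to 1.06), so its log2 ratio lay between 0.71 and 1.08 in all 3 kinds of marker-positive cell. Over 11 alternatives the ratio ran from 0.60 to 0.79 in SOX2-positive cells and from 0.67 to 1.17 in TFAP2A-positive cells. In MIXL1-positive cells it ran from 0.48, with at least 2 MIXL1 UMIs, to 1.14.

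Ligand and receptor detection was then compared within cells at equal depth, as the share of cells with a receptor among those with and without a ligand. Of the 20 ligand and receptor pairs in WT, 5 differed by 5 points or more. How often other genes differed by that much across these splits was not counted in either library. FGFR1 was in 26.8% of the 142 FGF17-positive cells and 56.3% of the rest, a difference of -29.5 points (-36.5 to -21.4). It was in 44.6% of FGF4-positive cells against 55.6% (-10.9 points, -17.5 to -4.26) and in 48.3% of FGF8-positive cells against 55.5% (-7.24 points, -12.9 to -1.49). FGFR2 was in 6.34% of FGF17-positive cells, a difference of -6.66 points from the rest (-10.0 to -1.21). FGF2 was the 1 ligand on the other side of that line, since FGFR1 was in 58.5% of FGF2-positive cells against 51.0% of the rest (7.54 points, 3.33 to 11.7). Over all WT cells, FGFR4 differed by less than 5 points whichever ligand split them. The number of pairs past 5 points rose with depth, to 15 without thinning.

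In GATA3 KO, FGF17-positive cells were too few to split by, and 2 of the other 16 pairs were past 5 points. FGFR1 was in 67.7% of the 65 FGF8-positive cells against 78.9% of the rest (-11.2 points, -23.3 to -0.98), and FGFR2 in 12.3% against 18.4% (-6.07 points), an interval that included 0 (-12.1 to 4.15). FGFR1 was in 75.8% of the 62 FGF4-positive cells against 78.7% (-2.92 points, -14.9 to 6.13), and in 80.3% of FGF2-positive cells against 76.7% (3.55 points).

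**Figure D5:**
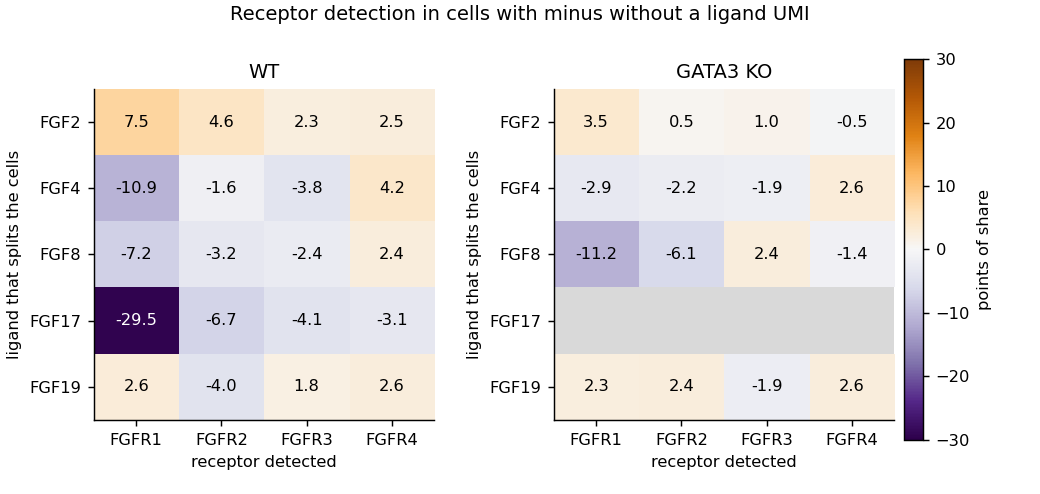
Difference in points between the share of cells with a receptor UMI among cells with a ligand UMI and among cells without it, at 10000 UMIs per cell, for WT and GATA3 KO. The darkest cell is FGF17 with FGFR1 in WT (-29.5 points), and FGF17 is left grey in GATA3 KO, where 4 cells held it.

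FGF4 occurred together with the other streak ligands in WT. In WT, FGF17 was in 27.7% of the 242 FGF4-positive cells and 3.88% of the rest, a difference of 23.8 points (18.5 to 29.8). FGF8 was in 28.5% against 14.2% and FGF19 in 16.5% against 4.40% of the same cells. FGF8 and FGF17 were less tied, with FGF17 in 10.2% of FGF8-positive WT cells against 5.85% of the rest (4.32 points, 1.32 to 8.10). Any of FGF4, FGF8 and FGF17 was found in 579 WT cells (26.6%), of which 67.2% held MIXL1, and in 125 GATA3 KO cells (3.10%), of which 22.4% did. At least 2 of the 3 were found in 127 WT cells, 93.7% of them MIXL1-positive, and in 6 GATA3 KO cells. A receptor of any kind was detected in 66.3% of WT and 86.1% of GATA3 KO cells.

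Within the 713 MIXL1-positive WT cells alone, a split added after the values above were seen, FGF17 and FGFR1 still parted. FGFR1 was in 26.9% of the 130 FGF17-positive cells and 46.8% of the other 583 (-19.9 points, -27.9 to -10.8). For FGF4 the shares were 42.8% and 43.4%, a difference of -0.57 points (-8.50 to 7.53), and for FGF8 45.7% and 42.2%. FGF17 was together with FGF4, which was in 50.8% of FGF17-positive cells against 23.2%, but FGF8 was in 25.4% against 28.5% (-3.09 points, -10.8 to 5.75). EOMES was in 86.2% of FGF17-positive cells against 59.5%, and in 83.6% of FGF4-positive cells against 56.8%. SOX2 was in 16.2% of FGF17-positive cells against 30.2%, and in 36.2% of FGF8-positive cells against 24.3%. Among cells that all carried MIXL1, SOX2 was thus rarer beside FGF17 and more frequent beside FGF8.

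The genes whose counts ran most closely with each member over the 2173 thinned WT cells were ranked by Pearson's r and named where r reached 0.2. FGF17 ran with CER1 (r = 0.68), an inhibitor of Nodal, BMP and Wnt made by anterior endoderm and its precursors, with MIXL1 (0.49) and with DKK1 (0.47), a Wnt inhibitor. FGF4 ran with MIXL1 (0.48), EOMES (0.47) and CER1 (0.37). FGFR1 ran with SFRP1 (0.36), a Wnt-binding protein, TERF1 (0.32), a telomere-binding protein, and CD24 (0.31), a surface glycoprotein. FGF2 ran with SOX2 (0.23), SFRP1 (0.23) and TERF1 (0.20), so it shared SFRP1 and TERF1 with FGFR1. FGF8 ran with TUBB2B (0.23), SERPINE2 (0.21) and NPM3 (0.21), and FGF19 with FGF4 (0.23). No gene reached 0.2 for FGFR2, FGFR3 or FGFR4. In the 4038 cells of GATA3 KO the value for FGF17 with CER1 was 0.44, with FGF17 in 4 cells only, and for FGFR1 with SFRP1 it was 0.32. Every named value was lower there than in WT. FGF4 was at 0.23 with MIXL1 and 0.19 with EOMES, FGF17 at 0.05 with DKK1, and FGF19 at 0.04 with FGF4. These cells share 1 library each, so the values describe those libraries, and the part of sparse counts in their size was not tested.

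Other genes of the pathway were counted by the same rule. Of 84 other FGF pathway genes, 66 met the minimum, 0 were 2-fold higher in GATA3 KO and 10 were lower, where 4.44% and 4.24% of all genes were. Their median log2 ratio was -0.04, against 0.08 over all genes. Among 17 other genes of the FGF family, not all of which encode receptor ligands, 7 met the minimum and 2 were lower. FGF10, a ligand of limb and lung buds, was at 1.05 CPM in WT with 105 UMIs and 0.0171 CPM in GATA3 KO with 3 UMIs, a ratio of 61.6-fold (20.5 to 304). FGF18, a relative of FGF8 and FGF17, was at 1.23 and 0.536 CPM. FGF13, which acts inside cells and binds no FGF receptor, was at 30.1 and 15.9 CPM and missed the line.

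Among 9 co-receptors and binding proteins, 4 met the minimum and 2 were lower. FLRT2 had 1295 and 551 UMIs, a log2 ratio of CPM of -2.05 (-2.19 to -1.90), and FLRT3 at 2.86 and 0.799 CPM (-1.84). Both are membrane proteins with leucine-rich repeats that can bind FGF receptors. FGFBP3, a secreted carrier of FGFs, was at 51.9 and 99.99 CPM, a log2 ratio of 0.95 (0.90 to 0.99). KLB, the co-receptor of FGF19, was at 0.382 CPM in both libraries, under the minimum. Of 22 heparan sulfate genes 21 met the minimum, with a median log2 ratio of 0.34, and NDST2 (1.09 and 0.513 CPM) and SULF1 (3.87 and 1.73 CPM), a sulfotransferase and a sulfatase of the sugar chains, were lower. None of the 15 of 16 transducers that met the minimum was past 2-fold. Their log2 ratios ran between -0.73 for MAP2K1 and 0.85 for MAPK3, the kinases MEK1 and ERK1.

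Of 20 targets and feedback inhibitors 19 met the minimum, 4 were lower and 0 were higher in GATA3 KO, where 4.24% and 4.44% of all genes were, with a median log2 ratio of -0.16. SPRY2 was at 31.6 CPM (30.5 to 32.8) in WT and 11.4 CPM (10.9 to 11.9) in GATA3 KO, and SPRY1 at 32.3 CPM (31.2 to 33.4) and 12.8 CPM (12.3 to 13.4). Both are Sprouty inhibitors of receptor tyrosine kinase signalling. DUSP5, a nuclear phosphatase of ERK, was at 19.8 and 6.64 CPM (-1.57, -1.68 to -1.47), and IL17RD, a membrane antagonist of FGF signalling, at 24.1 and 10.3 CPM (-1.23, -1.32 to -1.14). SPRY4 was just short of the line at 18.0 and 9.21 CPM (-0.97). Other targets stood on the other side of 0 without passing it. DUSP6, a cytoplasmic ERK phosphatase, was at 15.2 and 26.9 CPM (0.82, 0.74 to 0.90), ETV4 at 37.7 and 54.7 CPM (0.54) and EGR1 at 5.23 and 8.91 CPM (0.77), while ETV5 was at 18.7 and 17.5 CPM (-0.10). The targets therefore did not share 1 direction.

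By marker, the 4 lower targets did not share 1 pattern. In MIXL1-positive cells of WT, DUSP5 was at 33.6 CPM against 12.8 CPM in MIXL1-negative cells (1.40, 1.26 to 1.53) and IL17RD at 39.2 against 16.5 CPM (1.25, 1.13 to 1.37), while SPRY1 was at 27.4 against 35.2 CPM (-0.36). SPRY2 was also on the MIXL1 side in WT, at 39.7 against 27.3 CPM (0.54). SPRY1 was instead on the side of SOX2 in WT, at 39.3 against 24.6 CPM (0.67). In GATA3 KO, however, SPRY1 was higher in MIXL1-positive cells, at 23.4 against 12.6 CPM (0.90, 0.59 to 1.20). Within SOX2-positive cells SPRY1 was at 39.3 CPM in WT and 13.3 CPM in GATA3 KO (-1.56, -1.65 to -1.47), SPRY2 at 23.4 and 9.44 CPM (-1.31) and DUSP5 at 13.5 and 6.47 CPM (-1.06). Within MIXL1-positive cells SPRY1 was at 27.4 and 23.4 CPM, with an interval that included 0 (-0.54 to 0.09), and SPRY2 at 39.7 and 15.5 CPM (-1.36). SPRY2 was on the TFAP2A side in both libraries, at 50.5 against 28.9 CPM in WT (0.80) and 20.4 against 9.44 CPM in GATA3 KO (1.11). DUSP6 differed little by MIXL1 in either library, with log2 ratios of 0.10 and 0.04 and intervals that included 0.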

How the data were processed

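Single-cell libraries had been made from 1 WT and 1 GATA3 KO culture with the 10x 3′ v3 kit. Per the file headers, the authors used Cell Ranger 3.0.2, and per the labels the genome was GRCh38. The values are raw UMI counts per gene and cell barcode as deposited. The labels name no replicates or batches. Cells above 7500 detected genes or 25% mitochondrial counts were left out, following the study. Scrublet (scanpy 1.11.5) called 1 and 2 cells as doublets, too few for a caller that works, so the limit on detected genes was the only filter on doublets.

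Counts were summed over cells and divided by the total (CPM). Log2 ratios carried no pseudocount, a count of 0 was set to 3 counts, and their intervals were exact binomial. Shares had Clopper-Pearson intervals, their differences Newcombe intervals. All cover counting error only. The ratio code was tested on simulated data. A gene was past 2-fold with at least 1 CPM in the higher group and 20 UMIs in both groups together. Each pair needed at least 20 cells on either side. Positions came from GENCODE 44 by gene identifier. Reads of overlapping genes may be shared.

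The members, markers, pathway lists and rules were chosen with earlier results of these data known. Genes named besides the members were the markers, GATA3, pathway genes past 2-fold (up to 10 a direction) and, per member, the 3 genes of at least 5 CPM with the highest r. Other pathway genes, and EOMES, were named after their values were seen. No sequence is printed, because no protein sequences were at hand and promoters were lacking for FGF4, FGF8, FGF17, FGF19 and FGFR1. Alternatives changed cell limits, thinning depth (5000 or 20000 UMIs, or none) and seed, scaling (edgeR 4.0.16, DESeq2 1.42.0), fold and filters. Python 3.11.15, scipy 1.17.1 and R 4.3.3 were used.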

Additional observations from a re-analysis of the deposited data

Results flagged for a closer look

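For 5 member and marker pairs the ratio of marker-positive to marker-negative cells had opposite signs in the 2 libraries. Each group is 1 library, so none of these differences was tested. For FGF19 and SOX2 the log2 ratio was -0.50 in WT and 0.98 in GATA3 KO, a difference of 1.48. For FGFR3 and SOX2 it was 0.03 and -0.52, a difference of -0.55, and the WT value turned negative under 7 of 11 alternatives. For FGFR4 and MIXL1 it was -0.03 and 0.25, a difference of 0.28, and for FGF4 and TFAP2A 0.12 and -0.30, a difference of -0.42, with intervals that included 0 in both libraries. For FGF17 and TFAP2A it was -1.15 and 1.21, a difference of 2.36, but GATA3 KO had only 18 FGF17 UMIs in all and the value there fell under the minimum.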

How the results depend on the processing

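Each group is 1 library, so no replicate could be left out, and no result changed its direction among those called. The 4 ligands lower in GATA3 KO were counted at 4 under every alternative run. The 1 member higher, FGFR1, was within counting error of 2-fold. The count was 0 over all deposited cells, without the limit on detected genes, without the mitochondrial limit, with at least 2000 detected genes, without the cells of highest doublet score and under TMM or DESeq2 scaling, with log2 ratios from 0.91 to 1.02 over 10 alternatives. At a fold of 1.5 the counts rose to 10 pathway genes higher and 16 lower in GATA3 KO, 8 members by MIXL1 and 3 by TFAP2A in WT, 5 by SOX2, 5 by MIXL1 and 1 by TFAP2A in GATA3 KO, and 5 and 6 between libraries within SOX2- and MIXL1-positive cells. No share of all genes was counted at a fold of 1.5 or for the altered marker groups, so none stands beside those counts. Pathway genes higher came to 1 by the mean of per-cell CPM and 3 with no filter, and those lower to 5 at a minimum of 5 CPM. For TFAP2A in WT the count was 4 at 2 marker UMIs and 5 with TFAP2A-only cells against all TFAP2A-negative cells. It was 0 at 20000 UMIs or with another seed. In GATA3 KO it was 3 at 2 marker UMIs and 4 with TFAP2A-only cells against all TFAP2A-negative cells. For SOX2 in GATA3 KO it was 2 over all deposited cells, without either limit, without high doublet scores, with another seed and by the mean of per-cell CPM, 3 at 20000 UMIs and 0 at a minimum of 5 CPM. With MIXL1-only cells against all MIXL1-negative cells the count in GATA3 KO was 5. Between libraries, cells of 1 marker only gave 1 member for MIXL1 and 2 for TFAP2A. At 2 UMIs for detection 2 members differed by 5 points (FGF4 and FGFR1). Pairs past 5 points in WT were 11 at 20000 UMIs and 15 without thinning, and in GATA3 KO 4 at 5000, 6 at 20000, 12 without thinning, 0 at 2 UMIs and 5 with another seed, so these counts depend on depth. The other 138 of 182 recounts stayed within 1.5 times, and the causes were not tested. FGF17 in GATA3 KO is limited by its few UMIs (18), and all values from the 87 MIXL1-positive cells there by the number of cells.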
